A study of Mus musculus with 6 samples.

Results

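The brightest piRNA probes of a mouse piRNA microarray were examined in cultured neonatal mouse cardiomyocytes. Probes were chosen by their own brightness on these arrays, so their level is a description and carries no test. A probe was included when its processed intensity was at least 32 times the array's 75th percentile, a value of 5 on the normalized log2 scale, on each of 6 arrays, and when it was well above background on all 6. This held for 216 of 41069 piRNA probes. The samples were 3 given high glucose (40 mM) with palmitate (300 mM, the unit as labelled, which is open to a slip) and 3 given no treatment. Each sample was read on 1 array in 1 colour, as Cyanine-3 cRNA made from total RNA. Mouse strain, exposure time and any size selection of the RNA are not given in the sources used here. Since the labels do not state that the replicates are separate cultures or litters, p-values here rest on sample-to-sample spread that may be technical.

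PIWI-interacting RNAs (piRNAs) are small RNAs, longer than microRNAs, that guide PIWI proteins to complementary RNA. They are best known from the germ line, where they silence transposons, and many come from long single-stranded transcripts of genomic clusters. High glucose with palmitate, a saturated fatty acid, is widely used as a culture model of the diabetic environment of heart muscle cells. The files identify each probe by the array design's ID alone, so no piRNA name, sequence or genome position is given for any of the 216. Spot brightness also depends on how well a probe binds, so an order of brightness among probes is not an order of piRNA abundance.

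The scan record put treated replicate 1 and all 3 untreated replicates on 1 slide (slide 1) and treated replicates 2 and 3 alone on a second (slide 2). Each array's 75th percentile, in processed intensity, was 215, 299.8 and 258 on treated replicates 1, 2 and 3, and 145, 172 and 138 on untreated replicates 1, 2 and 3. All 3 treated arrays were above all 3 untreated ones, so dividing by this percentile lowers a probe on the treated arrays relative to the raw intensities. The number of probes at 5 or more was 644, 285 and 245 on treated replicates 1, 2 and 3, and 625, 650 and 457 on untreated replicates 1, 2 and 3. Slide 2 held most of the values nearest the threshold. The lowest of a bright probe's 6 values fell on treated replicate 3 for 149 probes, on treated replicate 2 for 41, on untreated replicate 3 for 24 and on untreated replicate 1 for 2.

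The bright probes were the top of the intensity range on each array, by construction. Their processed intensities ran from 8381 to 255590 on treated replicate 3 and from 14713 to 435753 on untreated replicate 2, the arrays with the lowest and the highest median over the bright probes. The brightest spot reached 56.0% of the scanner's saturation value, and no spot was saturated or flagged for non-uniformity among the 216. At the edge of the rule, ASPI331763P, ASPI245122P and ASPI285035P were just inside with lowest values of 5.02, 5.03 and 5.03. Just outside were ASPI036943P, ASPI351778P and ASPI296268P, with lowest values of 4.98, 4.97 and 4.96. For these 6 probes the lowest value was on treated replicate 3. By mean over the 6 arrays, the set held 40 of the 40 probes at 9 or more, 50 of 51 between 8 and 9, 72 of 75 between 7 and 8, 53 of 99 between 6 and 7 and 1 of 159 between 5 and 6.

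A group of 4 probes led on most arrays. ASPI145409P, ASPI183841P, ASPI197620P and ASPI085425P had geometric means of 1109, 1073, 1066 and 1042 times the 75th percentile over the 6 arrays. ASPI085425P had normalized log2 values of 10.82, 9.66 and 9.95 on treated replicates 1, 2 and 3, and 11.45, 11.30 and 6.97 on untreated replicates 1, 2 and 3. The treated values lay inside the untreated range, because untreated replicate 3 was far below the other 5 arrays. The other three of the group had the same profile. The 4 probes lay within 0.10, 0.12 and 0.20 of one another on treated replicates 1, 2 and 3, and within 0.17, 0.14 and 1.03 on untreated replicates 1, 2 and 3. Their ranks among all 41069 probes were between 1 and 4 on 5 arrays, and were 147, 171, 170 and 229 on untreated replicate 3.

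The next 6 probes by mean log2 value were not low on untreated replicate 3. ASPI380515P had values of 10.01, 8.72 and 8.96 on treated replicates 1, 2 and 3, and 10.22, 9.88 and 10.81 on untreated replicates 1, 2 and 3. It was highest on untreated replicate 3 and lowest on the slide 2 arrays. ASPI128225P was the brightest probe of untreated replicate 3 at 10.91, where the leading group was lower. Its other values were 9.99, 8.51 and 8.98 on treated replicates 1, 2 and 3, and 10.17 and 9.94 on untreated replicates 1 and 2. ASPI378699P, ASPI372094P, ASPI287393P and ASPI317027P completed the 10 brightest. Of these, ASPI378699P and ASPI317027P were also highest on untreated replicate 3, while ASPI372094P and ASPI287393P were highest on untreated replicate 1. The 6 probes lay within 0.36 to 0.37 of one another on each treated array, and within 0.39, 0.31 and 0.63 on untreated replicates 1, 2 and 3.

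The 216 probes, chosen for brightness, held a large share of each array's summed processed intensity. The share was 50.4%, 45.5% and 46.1% on treated replicates 1, 2 and 3, and 57.8%, 55.4% and 56.0% on untreated replicates 1, 2 and 3. All 3 treated arrays were below all 3 untreated ones, including treated replicate 1, which shared the untreated arrays' slide. The mean was 47.3% ± 2.65 in treated and 56.4% ± 1.23 in untreated cells (SD, n = 3 each), a difference of -9.04 percentage points. The two-sided exact permutation p was 0.1, the smallest that 3 against 3 allows, and 0.333 after Benjamini-Hochberg adjustment over the 10 per-array quantities compared. On slide 1 alone the difference was -6.00 points, from a single treated array. A share does not change when all intensities of an array are multiplied by a common factor, unlike the levels below. It does depend on how intensity is distributed within an array, and was not computed after the quantile normalization described below.

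Neither part of that share separated the groups by itself. The summed intensity of the bright probes was 17616600, 11072800 and 8936380 on treated replicates 1, 2 and 3, and 15863200, 18008600 and 13099400 on untreated replicates 1, 2 and 3. Treated replicate 1 lay inside the untreated range, and the slide 2 arrays lay below it (two-sided exact permutation test, p = 0.3, n = 3 each). The sum over the remaining probes was 17356000, 13248200 and 10446600 on treated replicates 1, 2 and 3, and 11605000, 14502600 and 10301000 on untreated replicates 1, 2 and 3. There was overlap here too (two-sided exact permutation test, p = 0.6, n = 3 each). The 10 brightest probes of each array held 8.13%, 7.28% and 9.21% of the sum on treated replicates 1, 2 and 3, and 9.65%, 8.60% and 9.41% on untreated replicates 1, 2 and 3. Here treated replicate 3 exceeded untreated replicate 2, so there was overlap again (two-sided exact permutation test, p = 0.2, n = 3 each).

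The order of the bright probes was much the same on 5 arrays and differed on untreated replicate 3. The correlations that follow are across probes, which share arrays and are not replicates, and describe these arrays only. Over the 216 probes the Spearman correlation was 0.964 between treated replicates 2 and 3, and 0.962 between untreated replicates 1 and 2. For treated replicate 1 the coefficient was 0.921 with untreated replicate 1, 0.925 with untreated replicate 2, 0.892 with treated replicate 2 and 0.913 with treated replicate 3. Across slides, treated replicates 2 and 3 were at 0.909 to 0.923 with untreated replicates 1 and 2. For untreated replicate 3 the coefficients with the other 5 arrays were 0.414 to 0.543. The mean over the 15 pairs was 0.779, and 0.925 over the pairs without untreated replicate 3.

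This pattern differed from the one over all 41069 probes. There the coefficient of untreated replicate 3 was 0.890 with untreated replicate 1, 0.895 with untreated replicate 2 and 0.778 to 0.864 with the treated arrays. The slide 2 arrays, which stood apart over all probes at 0.761 to 0.802 with treated replicate 1 and untreated replicates 1 and 2, kept nearly the same order of bright probes as those arrays. A narrower range of brightness by itself lowers a rank correlation, so the coefficients over 216 and over 41069 probes are not on 1 footing.

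Membership of the very top was less stable. Of the 216 probes, 130 ranked among the 216 brightest on every array, and 212 ranked within the first 410, the top percent. The median span between a probe's best and worst rank was 93.5 places over 6 arrays and 43.5 places without untreated replicate 3. The 10 brightest probes of each array came from 23 different probes, and 0 of them were in all 6 lists. Without untreated replicate 3 the lists held 18 probes, with 4 in all 5 lists. ASPI085425P was brightest on treated replicates 2 and 3 and untreated replicates 1 and 2, ASPI197620P on treated replicate 1, and ASPI128225P on untreated replicate 3.

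The probes with the narrowest spread were not those with the highest mean. ASPI030171P had the smallest range, 0.92 on the log2 scale, with values of 9.88, 9.22 and 9.46 on treated replicates 1, 2 and 3, and 9.30, 9.66 and 10.14 on untreated replicates 1, 2 and 3. Its treated and untreated values overlapped, and it ranked between 5 and 64 on every array. ASPI047899P had values of 9.19, 8.76 and 8.80 on treated replicates 1, 2 and 3, and 9.98, 9.78 and 9.73 on untreated replicates 1, 2 and 3. Its treated arrays were all below its untreated ones. ASPI247598P, ASPI077158P and ASPI310311P followed. The median range over the 216 probes was 2.24, or 1.91 without untreated replicate 3.

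Untreated replicate 3 held the highest or the lowest value of each of the 5 bright probes with the widest ranges. Relative to the mean of untreated replicates 1 and 2, it was 1 log2 unit or more lower for 71 bright probes, 1 or more higher for 39, and within 1 for 106. These ranges were set after the values were seen and carry no test. They were counted for the bright probes only, so they do not show how other probes behaved on that array. The lowest shift was -4.43, at ASPI043211P, with values of 9.84, 8.70 and 9.01 on treated replicates 1, 2 and 3, and 10.22, 10.10 and 5.72 on untreated replicates 1, 2 and 3. ASPI344748P had the largest range, 4.77, and moved the other way. Its values were 6.95, 5.32 and 5.98 on treated replicates 1, 2 and 3, and 7.56, 7.60 and 10.09 on untreated replicates 1, 2 and 3. ASPI149674P and ASPI312870P were likewise highest on untreated replicate 3, at 9.73 and 9.89, while ASPI085425P was lowest there.

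The same array kept some probes out of the set, as 243 probes met the rule without it. ASPI189260P had values of 9.66, 8.38 and 8.73 on treated replicates 1, 2 and 3, and 10.32, 10.16 and 4.23 on untreated replicates 1, 2 and 3. It ranked between 5 and 33 on 5 arrays and 643 on untreated replicate 3. Other probes were high on untreated replicate 3 and were kept out by other arrays. ASPI122387P was at 10.07 on untreated replicate 3 and between 4.57 and 6.16 on the other 5 arrays. It missed the rule on untreated replicate 1, at 4.57. ASPI028320P was at 9.81 on untreated replicate 3 and missed the rule on treated replicates 2 and 3, at 4.90 and 4.99.

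The 3 ranges of probes behaved more alike on the treated arrays. The mean of treated replicates 2 and 3 minus treated replicate 1 had a median of -1.43 for the probes low on untreated replicate 3, -1.18 for those within 1 log2 unit and -1.49 for those high on it. Both slide 2 arrays were below treated replicate 1 for all 216 probes, with differences of -2.79 to -0.41. Treated replicate 1 itself was within the range of the 3 untreated arrays for 140 probes, below it for 63 and above it for 13. These counts cover the bright probes only, so they do not show whether other probes on these arrays behaved alike.

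The comparison of treated with untreated cells asked whether the bright probes differed with high glucose and palmitate. Their median was 8.15, 6.87 and 6.57 on treated replicates 1, 2 and 3, and 8.57, 8.62 and 8.25 on untreated replicates 1, 2 and 3, on the normalized log2 scale. Treated replicate 1 was just below untreated replicate 3, and the slide 2 arrays were far below. The mean log2 value was lower in treated cells for 209 of the 216 and higher for 7, where 57.9% of all 33569 tested probes were lower. The median log2 fold change was -1.16 for the bright probes, a 2.23-fold lower level, and -0.12 for all tested probes.

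No bright probe passed the test: 0 of 216 had an adjusted p under 0.05 (limma, Benjamini-Hochberg over 33569 probes, of which 0% passed), and the smallest adjusted p was 0.349. At an unadjusted p under 0.05, 117 of 216 were lower, where 9.69% of all tested probes were, and 0 were higher, where 3.72% were. A mean at least 2-fold lower was found for 137 of 216, where 9.12% of all tested probes had one, and 108 met both cuts, where 6.21% of all tested probes did. For 63 of 216, every treated array was below every untreated array, where 12.4% of all tested probes were so, and 0 had every treated array above, where 5.83% did. Both slide 2 arrays were below treated replicate 1 for all 216. The count of 63 was therefore decided by treated replicate 1 alone. With a variance trended on brightness and robust to outlying probes, the number lower at an unadjusted p under 0.05 was 4, where 9.1% of all tested probes were. All 216 had passed the filter on dim probes through both groups.

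The median shift differed with slide and scaling. Slide 1 alone set treated replicate 1 against the 3 untreated arrays. There, and with slide as a block, the median log2 fold change of the bright probes was -0.31, with 139 lower and 77 higher. Over all tested probes the median was -0.10 in both fits. The share of all tested probes that were lower in these fits is not given, so the 2 directions are counted for the bright probes only. At an unadjusted p under 0.05, the slide block gave 14 lower bright probes, where 4.92% of all tested probes were lower, and slide 1 alone gave 2, where 1.88% were. In the slide 1 fit the single treated array has no spread of its own and is assumed to vary like the untreated ones, so that count is no measure of stability. The slide block's treatment term rests on the same single array. Slide 2 held treated arrays alone, so it gives no comparison of its own, and for its arrays treatment and slide cannot be told apart. Without treated replicate 1, 146 of 216 passed the adjusted threshold, each of them lower, where 35.1% of all tested probes passed in either direction. The treated arm was then entirely on slide 2. Array weights, which put nearly all the weight of the treated arm on slide 2, gave 209 of 216, where 67.8% of all tested probes passed.

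On unscaled intensities the median log2 fold change of the bright probes was -0.40, and that of all tested probes was 0.64. Relative to the median of all tested probes, the bright probes were at -1.04 with the 75th percentile, with median scaling and unscaled, since these scalings move every probe of an array alike. Quantile normalization forces a common distribution of values onto the arrays. It put the bright probes at 0.043, with 121 higher and 95 lower, and all tested probes at a median of -0.037. The share of all tested probes that were higher after quantile normalization is not given, so these counts describe the bright probes only. The authors' deposited table, which follows that normalization closely, gave 0.043 as well. After quantile normalization the medians of the bright probes were 7.93, 7.81 and 7.86 on treated replicates 1, 2 and 3, and 7.94, 7.92 and 7.68 on untreated replicates 1, 2 and 3, and the groups overlapped. Under it 1 bright probe was lower at an unadjusted p under 0.05, where 8.04% of all tested probes were, and 7 were higher, where 7.54% were.

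The lower bright probes with the smallest unadjusted p had untreated arrays that were close together. ASPI342542P had values of 8.90, 8.23 and 8.33 on treated replicates 1, 2 and 3, and 9.79, 9.71 and 9.61 on untreated replicates 1, 2 and 3. The groups did not overlap, and treated replicate 1 was the closest treated array to the untreated ones. Its mean was 8.49 ± 0.36 in treated and 9.71 ± 0.09 in untreated cells (SD, n = 3 each), so the log2 fold change was -1.22 (standard error 0.28, adjusted p = 0.349, limma). On slide 1 alone the log2 fold change was -0.80, and after quantile normalization -0.14.

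ASPI144603P had the largest change of the 5 probes named by this rule. Its values were 8.10, 6.84 and 6.77 on treated replicates 1, 2 and 3, and 8.89, 8.97 and 8.62 on untreated replicates 1, 2 and 3. The mean was 3.01-fold lower in treated cells, a log2 fold change of -1.59 (standard error 0.40, adjusted p = 0.349, limma). On slide 1 alone it was -0.73, and after quantile normalization -0.40. ASPI319967P, ASPI088369P and ASPI201830P had log2 fold changes of -1.43, -1.08 and -1.40, each with groups that did not overlap and an adjusted p of 0.349 (limma). ASPI088369P was at 0.027 after quantile normalization, with the sign turned.

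The 7 bright probes with a higher treated mean each had their lowest value of the 6 arrays on untreated replicate 3, and without that array 0 of the 7 were higher in treated cells. The 5 of them with the smallest unadjusted p were named. ASPI043211P, ASPI350609P, ASPI247618P, ASPI027574P and ASPI085425P had log2 fold changes of 0.50, 0.39, 0.36, 0.25 and 0.24, with standard errors of 0.90 to 1.14 and adjusted p-values of 0.837 to 0.926 (limma). ASPI350609P, for one, had values of 8.56, 7.50 and 6.92 on treated replicates 1, 2 and 3, and 8.22, 8.47 and 5.11 on untreated replicates 1, 2 and 3. Without untreated replicate 3, the log2 fold changes of the 5 probes were between -1.23 and -0.68. The 95% interval for ASPI043211P in the fit of all 6 arrays ran from -2.16 to 3.17. For this probe it held several-fold differences in both directions.

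The shift of the bright probes continued a gradient over brightness. Tested probes were put in bands of 1 log2 unit by their mean over the 6 arrays, a choice made after the values were seen. The median log2 fold change was -0.07 for the 12435 probes below -1, 0.038 for the 11407 probes between -1 and 0, -0.20 for 5382 between 0 and 1, -0.43 for 2171 between 1 and 2, and -0.55 for 969 between 2 and 3. It was -0.70 for 503 probes between 3 and 4, -0.77 for 278 between 4 and 5, and -0.98 for 159 between 5 and 6. In the bands that held nearly all bright probes it was -1.02 for 99 probes between 6 and 7, -1.27 for 75 between 7 and 8, -1.11 for 51 between 8 and 9, and -1.14 for 40 at 9 or more. From 6 upwards the bands showed no further order.

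On slide 1 alone the bands ran differently. The median log2 fold change was 0.49 for probes between 4 and 5 and 0.23 between 6 and 7. It was -0.28 between 7 and 8, -0.43 between 8 and 9, and -0.44 at 9 or more. Treated replicate 1 was thus above the untreated mean in the middle bands and below it in the highest ones. After quantile normalization the bands from 2 upwards had medians between -0.06 and 0.14.

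Bright control spots, which the choice of piRNA probes did not use, were described on the same scale, so their values carry the same division by each array's 75th percentile. Of 60 control probe names, 1 was at 5 or more on all 6 arrays, the corner marker GE_BrightCorner with 14 spots. It averaged 6.66, 5.70 and 5.80 on treated replicates 1, 2 and 3, and 6.63, 6.57 and 5.82 on untreated replicates 1, 2 and 3. On this scale it was low on the slide 2 arrays and on untreated replicate 3, and treated replicate 1 stood with untreated replicates 1 and 2. Unscaled, its mean intensity was 21972, 15967 and 14536 on treated replicates 1, 2 and 3, and 14549, 16620 and 7868 on untreated replicates 1, 2 and 3. The slide 2 arrays then stood with untreated replicates 1 and 2, treated replicate 1 was above every other array, and untreated replicate 3 was below every other array. The part of any such array difference in the shift of the bright piRNA probes was not tested.

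The bright probes were spread over the array. Of the 216, 98 lay in the upper rows of the grid and 118 in the lower ones, with 112 in the left and 104 in the right columns. A touching place on the grid held another bright probe for 6 of them. Median local background at the bright probes was 18, 14 and 14 on treated replicates 1, 2 and 3, and 18, 18 and 17 on untreated replicates 1, 2 and 3. Over all probes it was 16, 13 and 13 on treated replicates 1, 2 and 3, and 15 on each untreated replicate, so the local background was lower on slide 2 for bright probes and for all probes alike.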

How the data were processed

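The deposited scanner files hold intensity values from Agilent Feature Extraction (version 11.0.1.1 in the file headers). The processed intensity is background-subtracted and detrended but not scaled between arrays, per the file headers. The authors also deposited a table of log2 values for 39394 probes, its steps not stated. Quantile normalization of the scanner values came within 0.10 of it at every probe once both were centred on their array medians.

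Each array's log2 processed intensities were taken relative to its 75th percentile over all 41069 piRNA probes. Testing covered the 33569 probes detected (well above background) in 1 group or both on all 3 arrays, with limma 3.58.1 in R 4.3.3 (lmFit and eBayes, two-sided, Benjamini-Hochberg, adjusted p threshold 0.05), leaving out spots flagged for non-uniformity. The script was tested on simulated data. Per-array quantities had exact permutation tests. The number of arrays limits the precision.

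Groups and replicate numbers came from the titles, and slides from the scan record. The bright probes, named probes and lists were chosen with earlier results of these data known. Named probes were the 10 brightest, the 5 with the smallest and largest range, the 5 higher and lower with the smallest p, those nearest the threshold, the non-members highest on 1 array, and each array's brightest. Fold changes are treated over untreated. Alternatives covered scaling, background correction (normexp, offset 50, on median spot intensities), filters, variance, array weights, slide and replicate blocks, thresholds and leaving out each array.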

Additional observations from a re-analysis of the deposited data

Results flagged for a closer look

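Signal in control spots, which the comparison of piRNA probes does not use, differed between arrays. For 15 of the 60 control probe names the mean over the treated arrays was above every untreated array, and for 12 it was below every untreated array. Apart from GE_BrightCorner, the highest mean of a control name was 1.01 on the normalized log2 scale, far below the bright probes. The matching share of piRNA probes is not given. Treated replicate 1, on the same slide as the untreated arrays, was itself above every untreated array for 5 of the 15. The adenoviral E1A spike-in probes, which have no counterpart in mouse RNA, made up 10 of the 60 names and 4 of the 15. The labels do not state an added spike-in RNA.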

How the results depend on the processing

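The count of bright probes called (limma, adjusted p under 0.05 unless an unadjusted p is stated) was 0 under 21 of 25 alternatives and 0 with slide as a block. Array weights gave 209, where 67.8% of all tested probes passed. Treated replicate 1 was weighted at 0.082 and treated replicate 2 at 6.73. The count was 117 or 108 at an unadjusted p under 0.05 without and with a 2-fold minimum, each of them lower. Of all tested probes, 9.69% and 6.21% met these cuts in that direction. Leaving out 1 array gave 0 to 146, with 146 reached without treated replicate 1, where 35.1% of all tested probes passed. The replicate block called 0 and gave 153 at an unadjusted p under 0.05, of 5496 among all tested probes. Same-numbered samples deviated from their group means with correlations of 0.35, -0.28 and 0.46 across probes, and treated replicates 1 and 2 correlated best with untreated replicates 2 and 3, so the numbers were not taken as pairs.

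The median log2 fold change of -1.16 was -0.40 unscaled and -0.31 with slide as a block or on slide 1 alone. It turned to 0.043 with quantile normalization and with the authors' deposited table, to 0.063 with quantile normalization and slide as a block or slide 1 alone, and to 0.20 unscaled on slide 1 alone. Leaving out 1 array gave -1.54 to -0.88. The share difference of -9.04 percentage points kept its direction under 13 of 13 alternatives, at -11.1 to -6.00 points. These did not include quantile normalization or the authors' deposited table, which turned the sign of the median log2 fold change. Apart from slide 1 alone, which has a single treated array, each gave an exact permutation p of 0.1, the smallest these designs allow. The mean rank correlation of 0.779 ran from 0.743 to 0.925, the highest without untreated replicate 3. A threshold of 4 gave 337 probes, a threshold of 6 gave 131, and a mean of 5 or more gave 424; the other 10 alternatives gave 183 to 269. The combined slide and scaling settings and the sets by mean or by each array's own brightest probes were added after seeing the data. The cause of these changes was not tested.

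ASPI088369P turned to 0.027 with quantile normalization and in the authors' deposited table. The 5 named higher probes turned with array weights, to -1.02 (ASPI043211P), -0.84 (ASPI350609P), -0.93 (ASPI247618P), -1.07 (ASPI027574P) and -1.28 (ASPI085425P). Leaving out 1 array gave -0.97 to 1.27, -0.68 to 0.99, -0.82 to 0.95, -1.02 to 0.91 and -1.23 to 1.01 for these probes in that order. With 3 arrays a group, a bright probe's log2 fold change had a median standard error of 0.53, and a tested probe's 0.34.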
